A study of Mus musculus with 5 samples.

Results

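Wnt ligands are secreted, lipid-modified glycoproteins that bind Frizzled receptors together with co-receptors of the Lrp or Ror families. One branch, often called canonical, keeps beta-catenin from being destroyed by the complex that holds Apc, while other branches act on cell polarity and calcium. In the pancreas, as in other organs, some ligands are made mostly by epithelium and others mostly by the surrounding mesenchyme. The data described here are the signals of 10 Wnt ligand genes, chosen by name from the 19938 genes measured: Wnt2, Wnt2b, Wnt4, Wnt5a, Wnt5b, Wnt6, Wnt7a, Wnt7b, Wnt10a and Wnt11. For each gene the probe set annotated with that symbol alone was taken, and for Wnt4, which has 2 such probe sets, the one with the higher mean. All 10 were measured on every array and no filter on low values was applied.

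RNA of 5 mouse pancreatic cultures was measured on Affymetrix whole-transcript arrays, which give 1 value per probe set. Of these, 3 were primary cultures of pancreatic ductal adenocarcinoma (PDAC), written Pdx-1CreAPCL/+p53L/L, with 1 floxed Apc allele. Their controls were the other 2, cultures of normal ductal cells, written Pdx-1Cre p53L/L, so the Pdx-1Cre transgene, which is active in the pancreatic lineage, and floxed p53 alleles belong to both genotypes. The title of normal ductal replicate 2 names neither Cre nor ductal cells, although its source and cell type labels say ductal, and only the title of PDAC replicate 3 speaks of a mutant cell. The growth protocol, worded for PDAC cells on every sample, gives 10% serum and under 6 passages. Each title says biological replicate but names no animal, so p-values measure the spread between these 5 cultures only.

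The arrays had medians between 5.90 and 6.02 on the log2 scale. Duct markers had a lower mean in each PDAC culture than in either normal ductal culture: 8 of 10 listed markers were measured, with a mean signal of 6.12, 7.11 and 8.62 in PDAC replicates 1, 2 and 3, against 9.10 and 8.94 in normal ductal replicates 1 and 2. The normal ductal cultures differed in markers of other cell types. For 14 fibroblast and stellate markers the mean was 10.43 in normal ductal replicate 2 and 8.07 in replicate 1. In PDAC it was 9.48 to 9.81, so for this list normal ductal replicate 1 was the low array. Normal ductal replicate 2 had higher means than replicate 1 for 11 acinar markers (6.94 against 5.30), 12 islet markers (7.75 against 6.10) and 12 endothelial markers (6.88 against 5.82). In PDAC these means were 5.28 to 5.43, 5.34 to 5.41 and 5.40 to 5.53, so here normal ductal replicate 2 stood apart. For Wnt ligands whose difference changes sign without this array, the value without it is given too.

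The ligands differed in pattern, and 3 of them, Wnt7a, Wnt7b and Wnt11, had lower signals in every PDAC culture than in either normal ductal culture. Wnt4 was the 1 ligand whose PDAC values all lay above the normal ductal ones. By limma with Benjamini-Hochberg adjustment over all genes, 0 of the 10 members passed an adjusted p of 0.05, where the share over all genes was 0.0552%, of which 0.00502% were higher and 0.0502% lower in PDAC. At an unadjusted p under 0.05, 3 of the 10 were lower, against 6.86% of all genes, and 0 were higher, against 6.50% of all genes. Groups without overlap were lower in PDAC for 3 members, against 12.8% of all genes, and higher for 1, against 13.6%. The median log2 fold change (PDAC minus normal ductal) was -0.22 over the members and 0.01 over all genes. The lower count depended on single cultures: without PDAC replicate 2 or without normal ductal replicate 1 it was 1, Wnt11 in both cases.

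**Figure D1:**
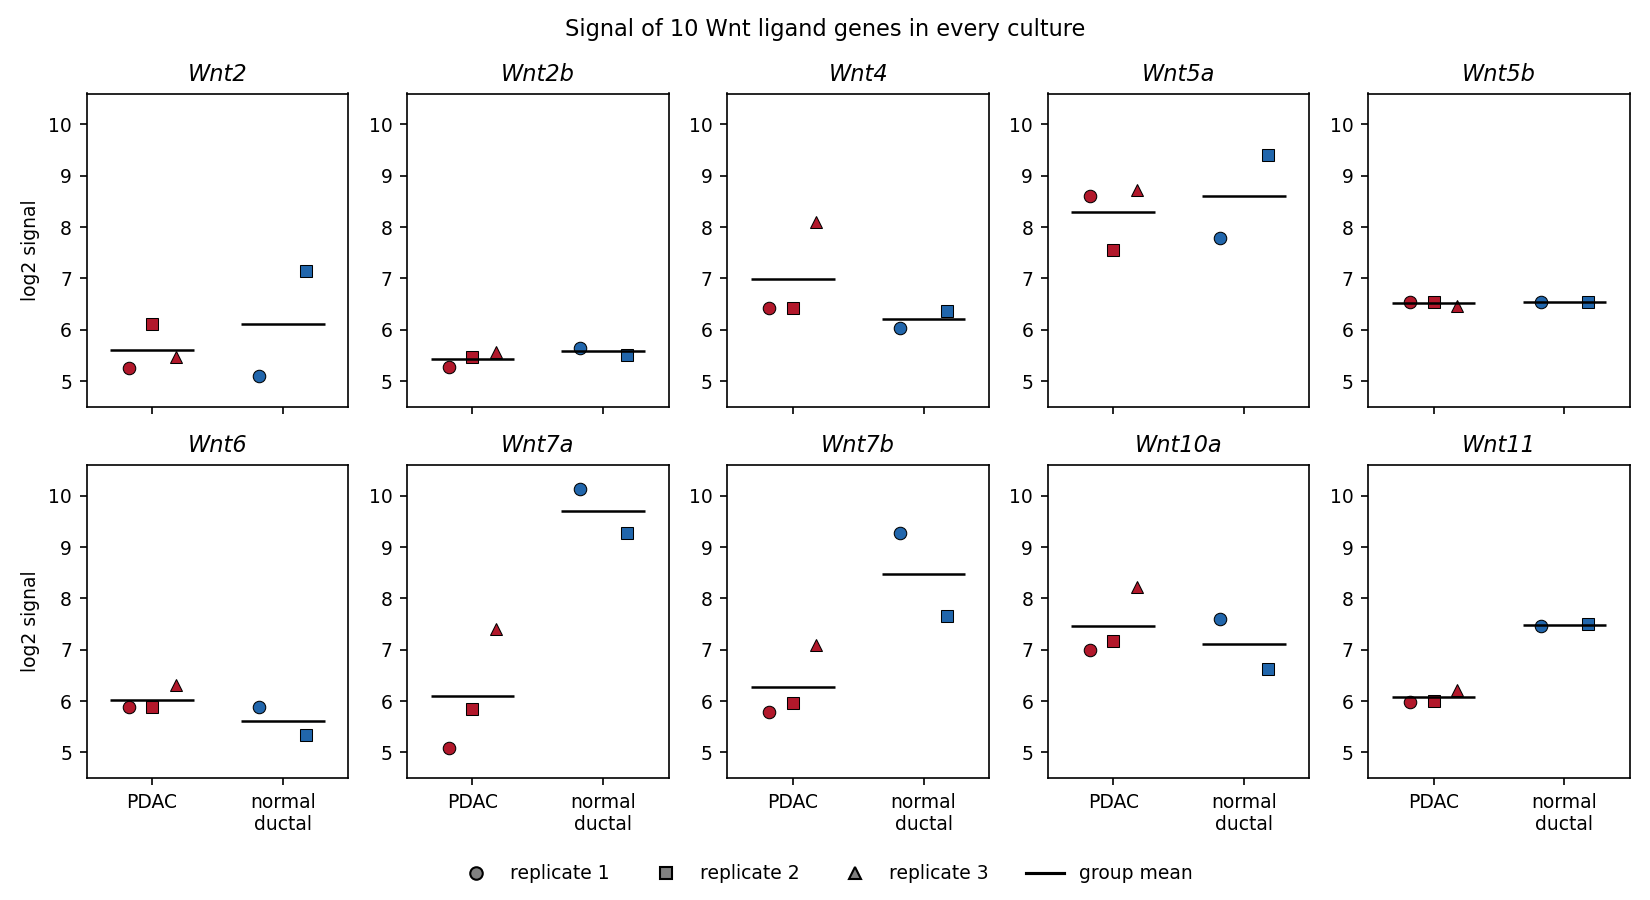
Log2 signal (vertical axis) of each Wnt ligand gene in the 3 PDAC cultures (red, left) and the 2 normal ductal cultures (blue, right), with the marker shape giving the replicate and the line the group mean. Wnt7a, Wnt7b and Wnt11 lie lower in all PDAC cultures, Wnt4 is highest in PDAC replicate 3 at 8.10, and Wnt2b and Wnt5b hardly vary. Heights are comparable within a gene, not between genes.

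The promoter windows of the members whose groups did not overlap are shown for reference. Their part in the differences described next was not tested. They run from 250 bases before to 50 bases after an annotated start (RefSeq, GRCm38.p6). Such windows were found for 7 of the 10 members, 10 windows in all, and among the members without overlap for Wnt7a, Wnt11 and Wnt4. Capitals mark a match on either strand to CTTTGAT, the core recognised by TCF/LEF factors, which prints as ATCAAAG on the other strand, to its variant CTTTGTT, or to CACCTG, the E-box recognised by Snail and Zeb repressors, which prints as CAGGTG. No printed matches overlap each other.
Wnt7a, chr6:91411304-91411603, minus strand: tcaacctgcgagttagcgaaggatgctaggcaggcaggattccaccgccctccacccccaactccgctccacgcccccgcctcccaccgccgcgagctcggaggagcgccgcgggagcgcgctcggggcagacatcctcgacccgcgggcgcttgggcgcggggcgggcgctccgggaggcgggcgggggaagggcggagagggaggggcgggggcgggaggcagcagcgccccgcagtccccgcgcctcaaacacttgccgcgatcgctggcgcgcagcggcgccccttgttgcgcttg
Wnt11, window 1, chr7:98834862-98835161, plus strand: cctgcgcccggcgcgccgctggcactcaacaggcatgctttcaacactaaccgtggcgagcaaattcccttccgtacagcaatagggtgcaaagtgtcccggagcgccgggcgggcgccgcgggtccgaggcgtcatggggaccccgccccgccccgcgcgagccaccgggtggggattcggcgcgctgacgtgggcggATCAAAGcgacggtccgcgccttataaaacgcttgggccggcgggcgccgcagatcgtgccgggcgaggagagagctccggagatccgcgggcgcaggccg
Wnt11, window 2, chr7:98838595-98838894, plus strand: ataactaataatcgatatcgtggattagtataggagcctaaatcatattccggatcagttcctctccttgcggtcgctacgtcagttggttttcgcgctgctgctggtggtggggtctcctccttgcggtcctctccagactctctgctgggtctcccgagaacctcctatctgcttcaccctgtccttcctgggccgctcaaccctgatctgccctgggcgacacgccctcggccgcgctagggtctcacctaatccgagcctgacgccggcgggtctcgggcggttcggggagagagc
Wnt4, chr4:137277385-137277684, plus strand: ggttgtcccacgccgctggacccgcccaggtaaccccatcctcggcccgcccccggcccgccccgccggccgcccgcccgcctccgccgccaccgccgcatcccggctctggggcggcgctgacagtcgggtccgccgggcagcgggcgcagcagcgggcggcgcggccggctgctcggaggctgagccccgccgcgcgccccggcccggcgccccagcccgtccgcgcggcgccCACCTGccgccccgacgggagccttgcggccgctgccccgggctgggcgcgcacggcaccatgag

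In the first Wnt11 window a CTTTGAT match on the minus strand began at -51, counted from the start. The Wnt4 window held 1 CACCTG match at -15, and the Wnt7a window and the second Wnt11 window held none of the motifs. Over the 32851 windows of this length in the RefSeq table, 3.73% held CTTTGAT, 5.85% CTTTGTT and 20.2% CACCTG. Among the 10 windows of the members, 2 held CTTTGAT (Wnt11 and a window of Wnt5b), 0 held CTTTGTT and 4 held CACCTG (Wnt2b, Wnt4 and 2 windows of Wnt5b). All 10 windows of the members held more G and C than the median of 52.7% over all windows, from 53% in a window of Wnt5b to 84.3% in that of Wnt4. The Wnt7a window was at 76.0%, between the Wnt11 windows (71.3% and 59.3%) and that of Wnt2b (79.7%). A match describes these letters and is not evidence of binding.

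Wnt7a, a ligand made by epithelia and best known from the limb and the female reproductive tract, showed the largest difference of the 10 ligands. Its log2 signal was 5.08, 5.85 and 7.40 in PDAC replicates 1, 2 and 3, against 10.14 and 9.27 in normal ductal replicates 1 and 2. The groups did not overlap, and among the PDAC cultures replicate 1 was lowest and replicate 3 highest. PDAC minus normal ductal was -3.59 on the log2 scale (SE 0.82, 95% interval -5.90 to -1.28), a 12.1-fold lower signal, with an unadjusted p = 0.0127 by limma and an adjusted p = 0.245. Mouse Wnt7a lies on chromosome 6 from 91363981 to 91411353 (GRCm38.p6).

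Wnt7b, the paralogue of Wnt7a that is known from lung epithelium, stood at 5.78, 5.97 and 7.09 in PDAC replicates 1, 2 and 3, against 9.27 and 7.67 in normal ductal replicates 1 and 2. The order of the PDAC cultures was that of Wnt7a and the lower normal ductal culture was again replicate 2. The difference was -2.19 on the log2 scale (SE 0.70, 95% interval -4.15 to -0.23), with an unadjusted p = 0.0364 by limma and an adjusted p = 0.338. Without normal ductal replicate 1 it was -1.39 (limma, unadjusted p = 0.162), and without replicate 2 it was -2.99 (unadjusted p = 0.0331). For Wnt7a itself the unadjusted p was 0.0501 without PDAC replicate 2, 0.0541 without normal ductal replicate 2 and 0.0906 without normal ductal replicate 1, by limma. Mouse Wnt7b lies on chromosome 15 from 85535437 to 85581821.

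Epithelial markers were also lower in PDAC. Of 16 measured markers, 14 had groups without overlap, all lower in PDAC, against 12.8% of all genes. At an unadjusted p under 0.05 by limma 10 were lower, against 6.86% of all genes. Their mean was 6.21, 6.80 and 8.37 in PDAC replicates 1, 2 and 3, against 10.57 and 10.29 in normal ductal replicates 1 and 2, so the cultures ran in the order of Wnt7a. The part of these markers in the Wnt7a and Wnt7b values was not tested. In RNA from whole cultures, fewer cells of a type and less RNA per cell cannot be told apart.

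Wnt11, a ligand of the beta-catenin-independent branch known from branching of the ureteric bud in the kidney, had the smallest unadjusted p of the 10. Its signal was 5.99, 6.00 and 6.22 in PDAC replicates 1, 2 and 3, against 7.46 and 7.49 in normal ductal replicates 1 and 2. The replicates of each group lay close together and the gap between the groups was wider than either spread. Unlike Wnt7a, it was nearly level over the PDAC cultures, with an SD of 0.13 against 1.18 for Wnt7a. The Wnt11 values in PDAC lay below 6.61, the median gene's mean. No measure of background was used here, so this level signal can also be one near background. The groups differed by -1.41 on the log2 scale (SE 0.09, 95% interval -1.67 to -1.14), 2.65-fold lower, with an unadjusted p = 0.000137 by limma. The adjusted p = 0.102 missed the threshold as deposited, with 0.0368 to 0.440 over 13 alternatives, 4 of them under it. Those were quantile normalization (0.0386), arrays at a common median (0.0368), leaving out the 50% of genes with the lowest mean (0.0471) and leaving out normal ductal replicate 1 (0.0486). Wnt11 lies on mouse chromosome 7 from 98835084 to 98854747.

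**Figure D2:**
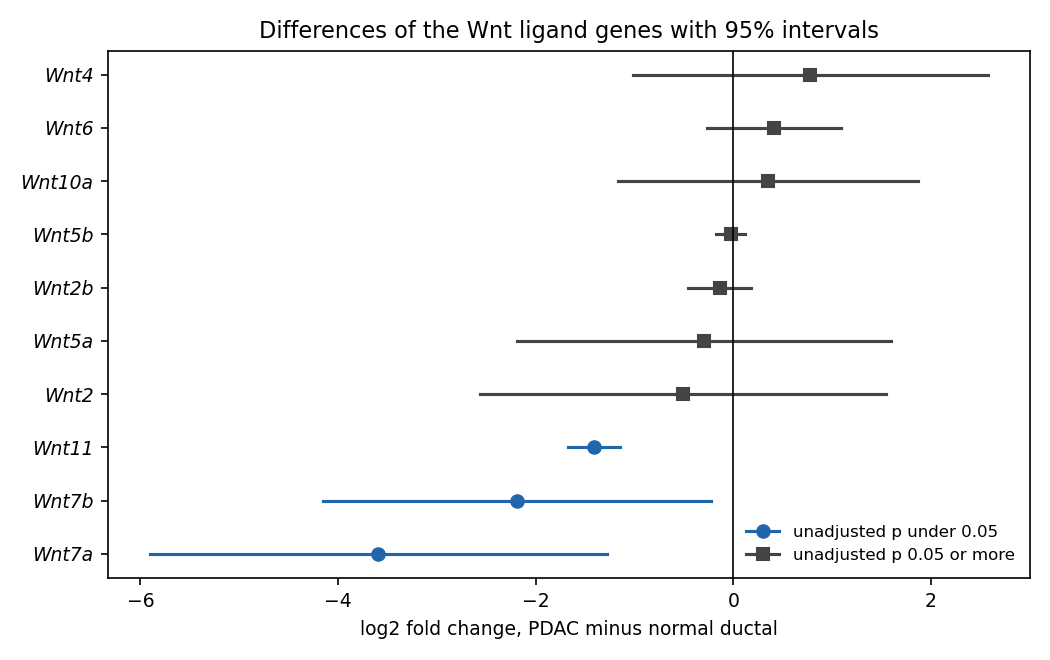
Log2 fold change, PDAC minus normal ductal (horizontal axis), of the 10 Wnt ligand genes with 95% intervals from the limma fit, with 3 PDAC and 2 normal ductal cultures. The intervals of Wnt7a, Wnt7b and Wnt11 lie below 0 and that of Wnt11 is narrow, from -1.67 to -1.14, while the other 7 include 0.

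Wnt4, a ligand that drives tubule formation in the kidney and development of the female gonad, was high in 1 PDAC culture. It read 6.43, 6.43 and 8.10 in PDAC replicates 1, 2 and 3, against 6.04 and 6.37 in normal ductal replicates 1 and 2. The groups did not overlap, yet PDAC replicates 1 and 2 were close to normal ductal replicate 2. Its log2 fold change was 0.78 (SE 0.64, limma unadjusted p = 0.292, adjusted p = 0.598), and without PDAC replicate 3 it was 0.22. The other Wnt4 probe set gave 6.54, 6.23 and 7.03 in PDAC replicates 1, 2 and 3, against 6.51 and 6.54 in normal ductal replicates 1 and 2. It was highest in PDAC replicate 3 too, but its group difference was 0.07.

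Wnt10a, best known from teeth, hair and skin, was also highest in PDAC replicate 3. It had 6.99, 7.18 and 8.22 in PDAC replicates 1, 2 and 3, against 7.60 and 6.63 in normal ductal replicates 1 and 2, and the groups overlapped. Its log2 fold change was 0.35 (SE 0.54, limma adjusted p = 0.777). It turned to -0.03 without PDAC replicate 3 and to -0.13 without normal ductal replicate 2. Its neighbour Wnt6, on mouse chromosome 1 from 74754342 to 74785322, ends 6696 bases before Wnt10a, which runs from 74792019 to 74804176. Wnt6 read 5.88, 5.88 and 6.32 in PDAC replicates 1, 2 and 3, against 5.88 and 5.34 in normal ductal replicates 1 and 2. For both neighbours PDAC replicate 3 was the highest array and normal ductal replicate 2 the lowest, while Wnt6 held 1 repeated value on 3 arrays and had a log2 fold change of 0.41 (SE 0.24, limma adjusted p = 0.550).

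PDAC replicate 3 lay more than 1 log2 unit above the mean of PDAC replicates 1 and 2 for 4 of the 10 ligands, Wnt4 (1.67), Wnt7a (1.93), Wnt7b (1.21) and Wnt10a (1.14), against 3.01% of all genes. It lay as far below for 0 of them, against 2.08% of all genes. The feedback target Axin2 was at 6.39, 6.45 and 8.42 in PDAC replicates 1, 2 and 3, against 6.56 in each normal ductal culture. The R-spondin receptor gene Lgr5, named after its values were seen, was at 5.18, 4.80 and 9.17 in the same PDAC cultures, against 5.67 and 5.48 in normal ductal cultures. Both are among the 17 measured feedback targets, most but not all of which were higher in this culture. PDAC replicate 3 minus the mean of PDAC replicates 1 and 2 was 2.01 for Axin2, 4.18 for Lgr5 and 2.43 for Rnf43. It was 1.52 for Tnfrsf19 and 1.13 for Sp5, where 3.01% of all genes exceeded 1. The same difference was -1.13 for Myc, -0.69 for Nkd2, -0.22 for Lef1, -0.05 for Znrf3 and -0.04 for Dkk1. For the remaining targets it lay between 0.03 (Apcdd1) and 0.75 (Ascl2). Wnt activity in this culture was not tested. Among the PDAC cultures, replicate 3 also had the highest mean of the epithelial markers (8.37, against 6.21 and 6.80). The same was true of the duct markers (8.62, against 6.12 and 7.11). Of 9 mesothelial markers, Upk3b and Gpm6a were high in PDAC replicate 3, at 10.41 and 9.32, and at 5.72 or less in every other culture. The other 7 were not higher there than in both normal ductal cultures by more than 1 log2 unit: Msln, for one, was at 11.18 in PDAC replicate 3, against 11.25 and 10.90 in normal ductal replicates 1 and 2. The mean of all 9 was 5.60, 5.62 and 7.33 in PDAC replicates 1, 2 and 3, against 6.36 and 6.55 in normal ductal replicates 1 and 2. Another of the 9, Muc16, was lower in PDAC (log2 fold change -2.67, limma adjusted p = 0.0170). The part of these markers in the ligand values was not tested.

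Wnt5a, the main ligand of the receptor kinase Ror2 and a product of many mesenchymal cells, varied within both groups. It had 8.60, 7.56 and 8.73 in PDAC replicates 1, 2 and 3, against 7.79 and 9.40 in normal ductal replicates 1 and 2. The highest array was normal ductal replicate 2 and the lowest PDAC replicate 2, so the groups overlapped. Its log2 fold change was -0.30 (SE 0.68, 95% interval -2.19 to 1.60, limma adjusted p = 0.862), and it turned to 0.51 without normal ductal replicate 2 and to 0.07 without PDAC replicate 2.

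Wnt2, which with Wnt2b specifies the lung from foregut in the mouse and is made there by mesenchyme, showed the same outlying culture. It read 5.26, 6.11 and 5.48 in PDAC replicates 1, 2 and 3, against 5.09 and 7.15 in normal ductal replicates 1 and 2. Normal ductal replicates 1 and 2 were the lowest and the highest of all 5 arrays. Over all 5 arrays the log2 fold change was -0.51 (SE 0.73, limma adjusted p = 0.759), and without normal ductal replicate 2 it was 0.52.

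Between the normal ductal cultures, replicate 2 was more than 1 log2 unit above replicate 1 for 2 ligands, Wnt2 (2.06) and Wnt5a (1.61), against 2.93% of all genes. It was as far below for Wnt7b (-1.60), against 0.978% of all genes. Fibroblast and stellate markers, with the means given above, exceeded normal ductal replicate 1 by more than 1 in replicate 2 for 11 of 14, among them the collagen gene Col1a1 (11.33 against 8.68) and the receptor gene Pdgfra (9.65 against 6.63). In PDAC replicates 1, 2 and 3 Col1a1 stood at 12.37, 11.45 and 11.82 and Pdgfra at 10.32, 9.96 and 10.27. The part of these markers in the Wnt2 and Wnt5a values was not tested.

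**Figure D3:**
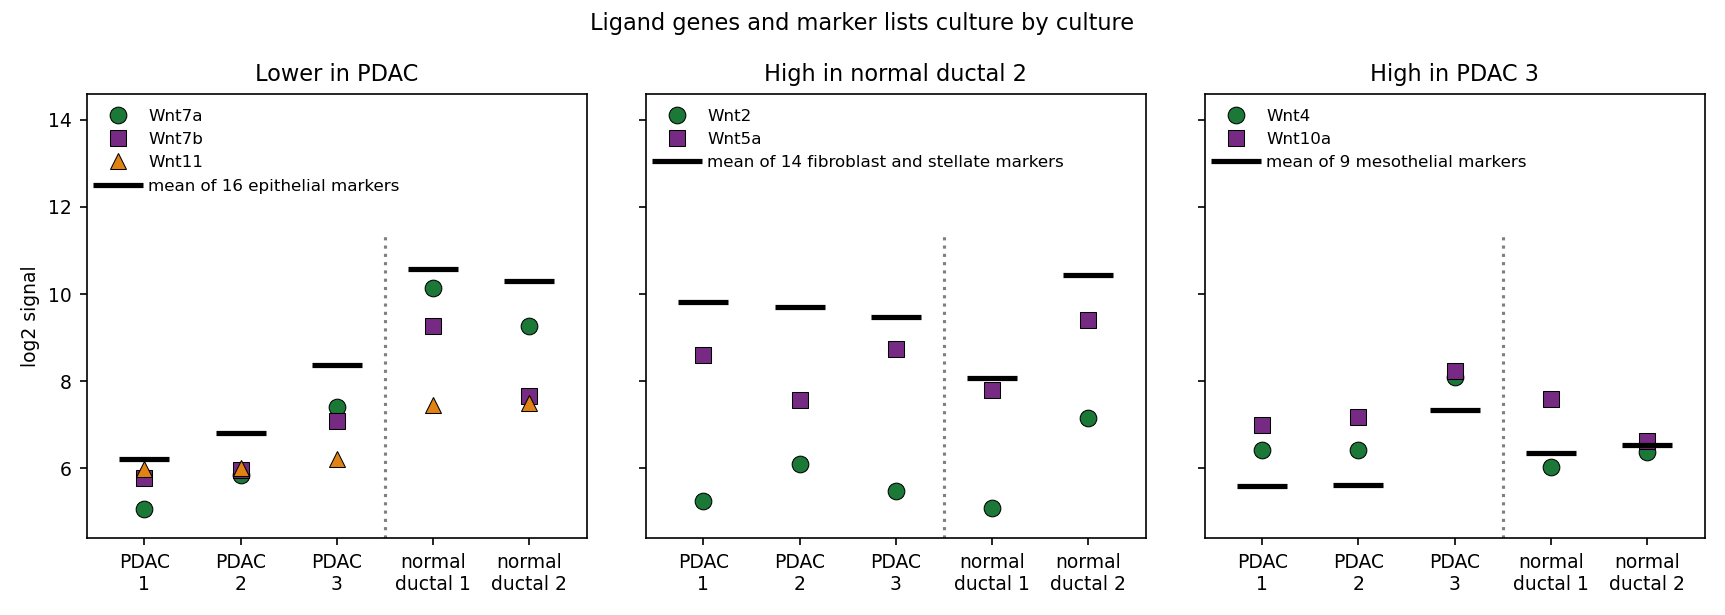
Log2 signal (vertical axis) of Wnt ligand genes (coloured symbols) and the mean of a marker list (black bars) in each of the 3 PDAC and 2 normal ductal cultures, the dotted line parting the groups. Wnt7a and the epithelial mean are both lowest in PDAC replicate 1 (5.08 and 6.21) and highest in normal ductal replicate 1 (10.14 and 10.57), while Wnt11 is nearly level within each group. Wnt2 is highest in normal ductal replicate 2 at 7.15 and Wnt4 in PDAC replicate 3 at 8.10.

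Wnt2b and Wnt5b hardly varied. Wnt2b had 5.28, 5.47 and 5.57 in PDAC replicates 1, 2 and 3, against 5.65 and 5.50 in normal ductal replicates 1 and 2, with a log2 fold change of -0.14 (SE 0.11, 95% interval -0.45 to 0.18, limma adjusted p = 0.595). Wnt5b, the paralogue of Wnt5a, had 6.55, 6.55 and 6.46 in PDAC replicates 1, 2 and 3, against 6.55 in each normal ductal culture, with a log2 fold change of -0.03 (SE 0.05, limma adjusted p = 0.824). The same value on 4 arrays is a feature of the deposited table: 47.8% of all genes, and the 3 members Wnt4, Wnt5b and Wnt6, had fewer than 5 distinct values. The origin of the repeated values was not tested, and no measure of background was used here, so a level signal can also be one near background.

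By the likeness of their values over the 5 arrays, 3 genes were picked for each of the 3 ligands with the widest range, from 9738 genes with a mean above the median of all genes. Likeness was the root mean square (RMS) difference after each gene was centred on its own mean. Nearest to Wnt7a were Spint2, an inhibitor of membrane serine proteases (RMS difference 0.17), Slc4a11 (0.19) and Mfsd6 (0.21). Spint2 stood at 6.18, 7.09 and 8.68 in PDAC replicates 1, 2 and 3, against 11.18 and 10.81 in normal ductal replicates 1 and 2. Nearest to Wnt7b were Flt4, a receptor of lymphatic growth factors (0.20), Neurl3 (0.26) and Spns2, a sphingosine-1-phosphate exporter (0.28). Nearest to Wnt4 were Alkbh7 (0.17), Lipa, the lysosomal acid lipase (0.18), and Add3, an adducin of the membrane skeleton (0.19). The range of Wnt4, 2.058, was nearly that of Wnt2, 2.056.

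Of the 9 other Wnt ligands, 0 passed an unadjusted p of 0.05 by limma in either direction (6.50% of all genes higher, 6.86% lower) and 0 an adjusted one, with a median log2 fold change of 0 (0.01 over all genes). The genes nearest to a call were Wnt10b, with 6.72, 8.17 and 7.14 in PDAC replicates 1, 2 and 3, against 6.35 and 5.63 in normal ductal replicates 1 and 2, and Wnt9a, with 6.26, 6.69 and 6.89 in PDAC, against 7.93 and 7.003 in normal ductal cultures. Both had groups without overlap. A log2 fold change of 1.35 (SE 0.54, limma adjusted p = 0.426) was found for Wnt10b and -0.85 (SE 0.37, limma adjusted p = 0.468) for Wnt9a. Wnt3 and Wnt16 each had a single value on all 5 arrays.

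Of 8 genes listed for acylation, release and deacylation of Wnt ligands, all measured, 4 were higher at an unadjusted p under 0.05 (Wls, Gpc6, Porcn and Notum, the last named after its values were seen), against 6.50% of all genes, and 0 were lower. None of the 8 passed an adjusted p of 0.05, and the median log2 fold change was 0.36, against 0.01 over all genes. Wls and Porcn serve acylation and release, while Notum acts against them by removing the lipid. Wls, which carries acylated ligands to the cell surface, read 10.56, 10.56 and 10.53 in PDAC replicates 1, 2 and 3, against 10.05 and 9.81 in normal ductal replicates 1 and 2. Its 3 PDAC values nearly coincided and lay above both controls, with a log2 fold change of 0.62 (SE 0.10, limma unadjusted p = 0.00313, adjusted p = 0.175). Over 13 alternatives the adjusted p was 0.0291 to 0.440, and it was under 0.05 only without normal ductal replicate 1.

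Porcn, the enzyme that adds the lipid without which a Wnt is not released, had 8.36, 7.41 and 7.80 in PDAC replicates 1, 2 and 3, against 6.66 and 6.75 in normal ductal replicates 1 and 2. The groups did not overlap, and the log2 fold change was 1.15 (SE 0.32, limma unadjusted p = 0.0231, adjusted p = 0.297). Gpc6, a heparan sulfate proteoglycan of the cell surface, had a log2 fold change of 1.13 (SE 0.21, limma adjusted p = 0.208). Notum, an enzyme that removes the lipid again and is itself a Wnt target in several tissues, had 1.05 (SE 0.33, limma adjusted p = 0.331).

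Among 18 receptors and co-receptors, Fzd2 and Ror2 were higher and Lrp5 and Ror1 lower at unadjusted p-values under 0.05, by limma. The shares over all genes were 6.50% higher and 6.86% lower, and 0 of the 18 passed after adjustment. The Wnt5a receptor Ror2 was at 9.04, 8.59 and 8.36 in PDAC replicates 1, 2 and 3, against 7.10 and 7.98 in normal ductal replicates 1 and 2 (log2 fold change 1.13, SE 0.37, limma adjusted p = 0.347). Fzd2, another receptor, had a log2 fold change of 1.39 (SE 0.40, limma adjusted p = 0.307), and Lrp5, a co-receptor of the beta-catenin branch, -0.93 (SE 0.27, limma adjusted p = 0.311). Ror1, the relative of Ror2, named after its values were seen, had 7.12, 7.32 and 9.04 in PDAC replicates 1, 2 and 3, against 9.54 and 10.46 in normal ductal replicates 1 and 2 (-2.17, limma adjusted p = 0.364). Reck and Adgra2, which in the mouse brain form the receptor complex for Wnt7a and Wnt7b and were also named after their values were seen, had log2 fold changes of 0.07 (SE 0.13, limma adjusted p = 0.815) and 1.27 (SE 0.71, limma adjusted p = 0.550). Adgra2 was at 8.97, 9.08 and 8.65 in PDAC replicates 1, 2 and 3, against 6.57 and 8.70 in normal ductal replicates 1 and 2, so the groups overlapped and the low array was normal ductal replicate 1.

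The remaining lists held no gene with an adjusted p under 0.05 by limma. Their counts at an unadjusted p stand against 6.50% of all genes higher and 6.86% lower. At unadjusted p-values under 0.05, of 15 secreted antagonists 1 was higher and 0 lower, of 9 R-spondins and their receptors 1 and 0, of 18 cytoplasmic transducers 3 and 1, of 17 feedback targets 1 and 2, and of 21 genes of the polarity and calcium branch 1 and 3. Counted once each, the 110 genes of the 8 lists gave 12 higher and 8 lower, against 6.50% and 6.86% of all genes, and limma called 0 after adjustment. Genes in these counts outside the naming rule, listed after their values were seen, were Bcl9l (higher) and Gsk3a (lower) among the transducers, Notum (higher) and Prox1 (lower) among the targets, and Daam1 and Celsr2 (lower) in the polarity and calcium branch. The antagonist Sfrp4 had a log2 fold change of 1.74 (SE 0.61, limma adjusted p = 0.371) and Dkk2 1.11 (SE 0.46, adjusted p = 0.440). Lgr6, an R-spondin receptor, had 0.90 (SE 0.15, adjusted p = 0.190), and the ligand Rspo3 -1.58 (SE 0.87, adjusted p = 0.550), with 4.91 to 5.35 in PDAC, against 5.35 and 7.96 in normal ductal replicates 1 and 2. The Rspo3 difference was -0.28 without normal ductal replicate 2 (limma adjusted p = 0.757) and -2.88 without normal ductal replicate 1 (limma adjusted p = 0.0433).

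Of the intracellular genes, the beta-catenin cofactor Bcl9 had a log2 fold change of 0.55 (SE 0.08, limma adjusted p = 0.171) and the transducer Dvl2 0.84 (SE 0.24, adjusted p = 0.306). Apc, of which the PDAC genotype has 1 floxed allele, had 8.58 to 9.06 in the 3 PDAC cultures, against 9.23 and 9.02 in normal ductal replicates 1 and 2, and the groups overlapped (-0.25, SE 0.20, limma adjusted p = 0.590). A probe set outside the deleted exons would not register the deletion. Beta-catenin itself (Ctnnb1) had -0.47 (SE 0.22, limma adjusted p = 0.497).

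Among the feedback targets, Axin2 had a log2 fold change of 0.52 (SE 0.76, limma adjusted p = 0.759), Lef1 -0.09 (SE 0.58, adjusted p = 0.980), Apcdd1, a membrane inhibitor of Wnt signalling, 0.90 (SE 0.34, adjusted p = 0.406) and the adhesion receptor Cd44 -0.96 (SE 0.22, adjusted p = 0.251). In the polarity and calcium branch, the phospholipase gene Plcb1 stood at 7.43, 7.24 and 7.64 in PDAC replicates 1, 2 and 3, against 5.56 and 5.61 in normal ductal replicates 1 and 2. It had the smallest unadjusted p of the 110 genes (log2 fold change 1.85, SE 0.14, limma unadjusted p = 0.000221, adjusted p = 0.119, and 0.0261 to 0.440 over 13 alternatives). The transcription factor gene Nfatc2 had -0.73 (SE 0.12, limma adjusted p = 0.181).

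**Figure D4:**
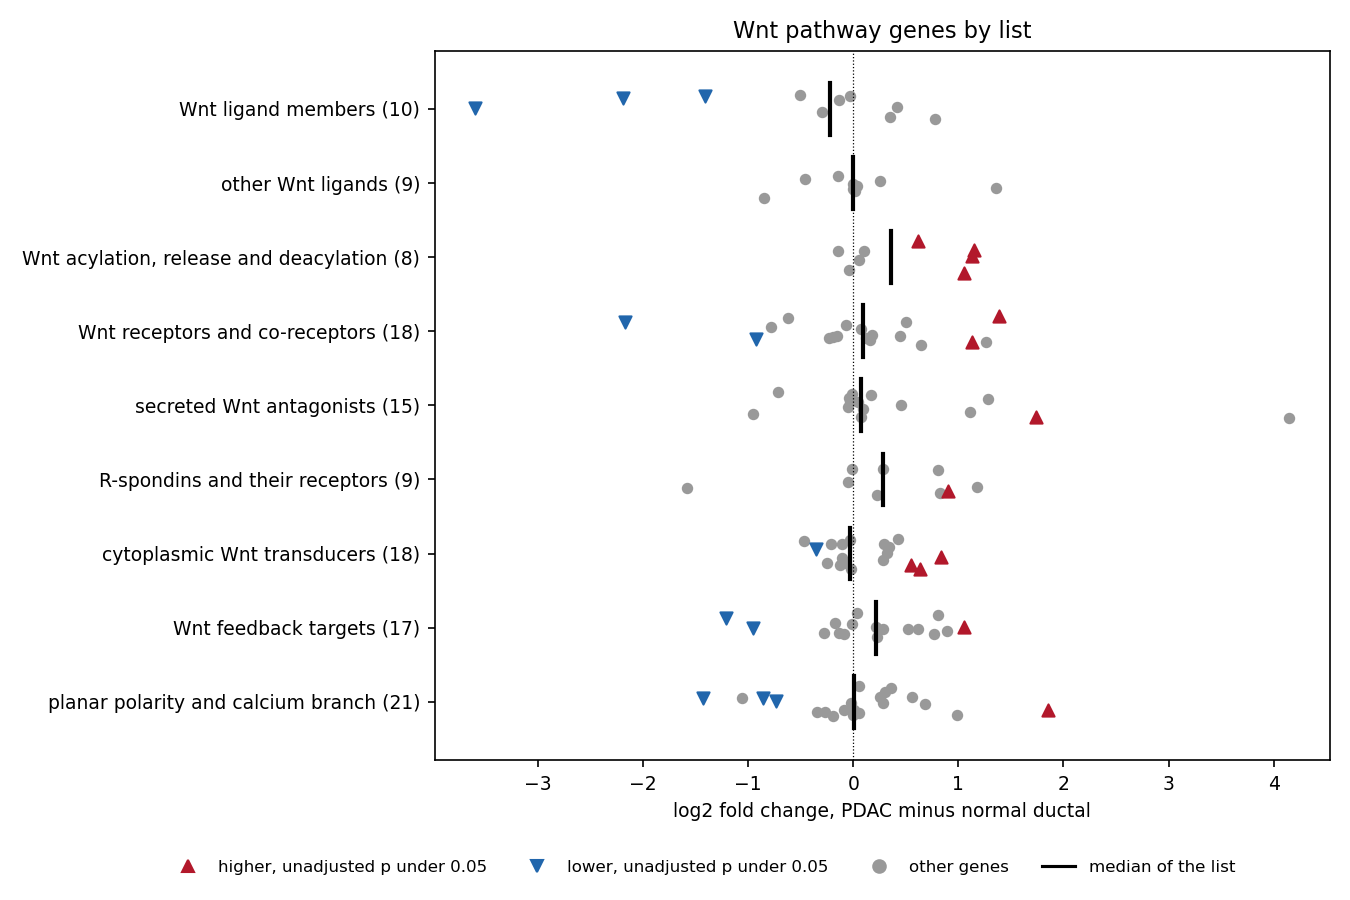
Log2 fold change, PDAC minus normal ductal (horizontal axis), of every measured gene in the list of the 10 Wnt ligands and in 8 other Wnt pathway lists, with the number of genes in brackets and triangles for genes with an unadjusted p under 0.05 by limma. The 3 ligands at the far left of the top line are Wnt7a, Wnt7b and Wnt11, and the list of acylation, release and deacylation genes holds 4 higher genes, the deacylase gene Notum among them, and 0 lower ones.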

How the data were processed

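The authors deposited 1 table of log2 signals for 35556 probe sets on 5 arrays. RNA came from a column kit and was amplified and labelled with biotin, per the labels' protocols. Transcriptome Analysis Console 1.0.0.234 and mm10 are named, per the submitters' processing notes. How background was corrected, how arrays were normalized and which logarithm was taken is not given in the sources used here. Values ran from 0.727 to 13.9 and were taken as log2 for that reason. Another base would change fold changes, not tests. The small number of arrays limits the precision.

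Probe sets with exactly 1 symbol in the platform annotation (21789) were kept, and 21698 matched RefSeq genes of GRCm38.p6 by Entrez identifier. The highest mean was used where a gene had several, giving 19938 genes. PDAC was compared with normal ductal by limma 3.58.1 in R 4.3.3 (intensity trend, two-sided, 3 residual degrees of freedom and 0.91 prior ones). P-values were adjusted over the 19938 genes by Benjamini-Hochberg and called at 0.05, and the fit was tested on simulated data. Tables and figures used Python 3.11.15, pandas 2.3.3, numpy 2.4.6 and matplotlib 3.10.9. From each pathway list without a call, the 2 genes of smallest p that reach 6.61 (the median gene's mean) in either group are named, beside Porcn, Wls, Ror2, Axin2, Lef1, Apc and Ctnnb1. Members and lists were chosen with earlier results of these data known. The 13 alternatives changed the normalization, filter, variance model, probe sets, weights, a block or the cultures used.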

Additional observations from a re-analysis of the deposited data

How the results depend on the processing

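As deposited, limma called 11 genes, and 0 of the 10 Wnt ligands and 0 of the 110 other pathway genes. Quantile normalization gave 42, 1 and 1, arrays at a common median 80, 1 and 1, and leaving out the 50% of genes with the lowest mean 42, 1 and 1, the ligand being Wnt11 and the other gene Plcb1 each time. The last setting gave no value for Wnt2, Wnt2b, Wnt5b and Wnt6. Array weights gave 3 genes, with 0 ligands. Leaving out 1 culture gave 0 to 1287 genes, 0 to 1 ligands and 0 to 5 pathway genes: 0 genes without any 1 PDAC culture, 1287 without normal ductal replicate 1 and 990 without normal ductal replicate 2. The count of ligands lower at an unadjusted p under 0.05 was then 1 to 3, and the lone culture in fits without a normal ductal replicate is assumed to vary like the others. The median difference over all genes moved to 0.04 under quantile normalization and 0.10 at a common median, against 0.01 in the deposited values. With the replicate number as a block (replicate block) limma called 0 genes, 0 ligands and 0 pathway genes, and 2 ligands were lower at an unadjusted p under 0.05. Deviations of same-numbered arrays from their group means correlated at -0.18 and -0.04 across genes. With 2 normal ductal arrays the deviations of 1 mirror those of the other. The correlations therefore cannot decide whether the numbers pair the cultures.

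Genes with small differences changed sign. The log2 fold change of Wnt2 was -1.54 to 0.52 when 1 culture was left out, positive without normal ductal replicate 2. That of Wnt5a was -1.10 to 0.51, positive without PDAC replicate 2 (0.07) or normal ductal replicate 2. Wnt5b was 0.060 after quantile normalization and 0.066 at a common median. Wnt10a was -0.030 with the replicate block and -0.13 to 0.83 when 1 culture was left out, negative without PDAC replicate 3 or normal ductal replicate 2. Axin2 was -0.14 with the replicate block and -0.14 to 0.87 when 1 culture was left out, negative without PDAC replicate 3. Lef1 was 0.0068 at a common median and -0.96 to 0.79 when 1 culture was left out, positive without normal ductal replicate 2. The causes were not tested. Wnt7a (-4.24 to -3.08), Wnt7b (-2.99 to -1.39) and Wnt11 (-1.48 to -1.31) stayed lower in PDAC in all 13 alternatives.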
